A study of Mus musculus with 6 samples.

Results

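Messenger RNA for 7 transcription factors that hold T cells in the naive, resting or memory state was measured in mouse T cells cultured under Th17 conditions with or without pemafibrate. The genes are Tcf7, Lef1, Klf2, Foxo1, Foxp1, Bach2 and Satb1. They were chosen by name as factors known from naive and quiescent T cells, by a rule that uses no measured value but was written with earlier results of these data known, and all 7 of them have a row among the 24421 genes of the deposited table. All cells were wild-type primary CD4 T cells, isolated from spleen as naive cells and polarized to Th17, the helper type that makes interleukin 17. The pemafibrate group received 10 nM pemafibrate, a selective PPARalpha modulator, until day 2, and the vehicle group received vehicle; both then had 2 days in fresh medium with 10% serum. Each group had 3 samples, numbered 3, 4 and 7 for vehicle and 3, 7 and 8 for pemafibrate. The labels name no strain, sex, age or number of mice, nor whether the samples came from separate cultures, and p-values here refer to the variation among 3 libraries a group, part or all of which may be technical.

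TCF-1, the product of Tcf7, and LEF-1 are closely related HMG-box proteins that bind DNA at the same motif and work with beta-catenin or with Groucho repressors. FOXO1 is a forkhead factor that stays in the nucleus of resting T cells, where it drives genes such as Il7r, Ccr7 and Klf2, and is sent out of the nucleus when PI3K and AKT signal. KLF2 is a zinc finger factor that enforces quiescence and drives S1pr1, FOXP1 is a forkhead factor that restrains naive T cells, BACH2 is a leucine zipper repressor of effector genes, and SATB1 folds chromatin and recruits modifying enzymes in thymocytes and T cells. In T cells the RNA or protein of several of these factors usually declines with activation.

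The 6 libraries held 14935351 to 18322467 reads, as the steps of the RPKM values show. RPKM, reads per kilobase of gene scaled to the reads of the library, can be compared between genes since it is per length. Recovered reads over all libraries came to 632 for Klf2 and to between 13111 and 120821 for each of the others. Counting alone gives a relative error of 11.0% for Klf2 in its lowest library and of at most 2.27% for the other genes. Vehicle and pemafibrate libraries separated on the first principal component, with 26.4% of the variance, but the second, with 24.9%, set vehicle 7 and pemafibrate 3 apart from vehicle 4 and pemafibrate 8.

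Satb1, the most abundant of the 7, measured lower after pemafibrate in every library. Satb1 lies on the minus strand of chromosome 17, 51736187 to 51833290 (GRCm38). It measured 193.7, 199.6 and 176.8 RPKM in vehicle 3, 4 and 7, against 138.4, 160.9 and 163.2 RPKM in pemafibrate 3, 7 and 8. The highest pemafibrate library lay below the lowest vehicle library, so the groups did not overlap. The mean went from 190 ± 11.9 to 154 ± 13.7 RPKM (SD, n = 3 each), a difference of -18.9%. On the log2(RPKM + 0.5) scale the difference was -0.30 ± 0.07 (SE), with a 95% interval from -0.47 to -0.13. It did not pass over all genes with limma and Benjamini-Hochberg adjustment (adjusted p = 0.188). It passed with voom on the recovered reads, which ran from 16312 to 23806 per library (log2 difference -0.30 ± 0.06, adjusted p = 0.0234), and the authors' deposited table gives it an adjusted p of 7.68e-06. The voom call was lost without vehicle 3 (adjusted p = 0.174), without vehicle 4 (0.0967) and without pemafibrate 7 (0.0651), and was kept without each of the other libraries (0.00593 to 0.0283). In RNA from whole cultures, fewer cells that carry a transcript and less of it per cell cannot be told apart.

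**Figure D1:**
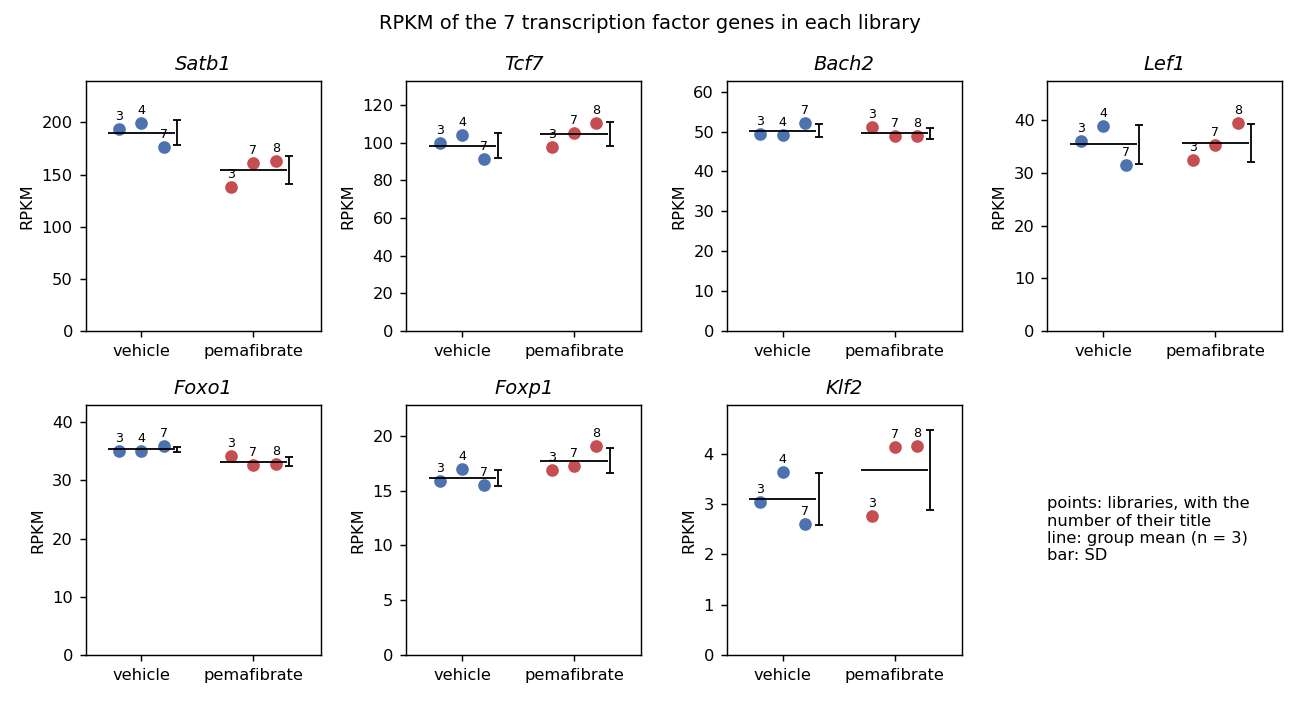
RPKM (vertical axes, from 0) of the 7 genes in the 3 vehicle libraries (blue) and the 3 pemafibrate libraries (red), each point labelled with the number in the library's title, with group means and SD. Satb1 and Foxo1 are the genes whose groups do not overlap, while for Lef1 and Bach2 the group means nearly coincide.

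Of 5 promoter windows of Satb1 the 2 furthest upstream are shown, and of 2 of Tcf7 the 1 with matches. Satb1 was picked for the largest log2 difference of the 7, which did not pass with limma. Tcf7 was picked because it holds matches to motifs of 2 other factors of the set. The windows run from 250 bases before to 50 after a transcription start, come from RefSeq (GRCm38.p6, 17 windows for the 7 genes), and read 5′ to 3′ on the gene's minus strand. The RPKM values are per gene and do not show which start was used. Capitals mark matches, on either strand, to GTAAACA (FOXO), CTTTGAT (TCF-1 and LEF-1), TGCTGAG (BACH2 with a small MAF protein), CCACACCC (KLF) or a direct repeat of AGGTCA with 1 base between (PPAR).
Satb1, chr17:51833241-51833540: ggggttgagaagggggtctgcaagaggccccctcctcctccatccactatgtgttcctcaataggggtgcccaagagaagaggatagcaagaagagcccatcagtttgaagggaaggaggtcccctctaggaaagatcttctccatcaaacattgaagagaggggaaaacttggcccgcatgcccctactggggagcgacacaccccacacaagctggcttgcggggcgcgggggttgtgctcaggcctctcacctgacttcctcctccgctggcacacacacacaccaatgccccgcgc
Satb1, chr17:51832598-51832897: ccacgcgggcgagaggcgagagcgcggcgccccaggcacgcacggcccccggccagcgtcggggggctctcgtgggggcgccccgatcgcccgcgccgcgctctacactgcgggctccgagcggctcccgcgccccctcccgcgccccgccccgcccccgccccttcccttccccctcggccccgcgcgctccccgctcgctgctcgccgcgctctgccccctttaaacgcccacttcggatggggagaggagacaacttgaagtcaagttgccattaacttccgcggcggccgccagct
Tcf7, chr11:52282546-52282845: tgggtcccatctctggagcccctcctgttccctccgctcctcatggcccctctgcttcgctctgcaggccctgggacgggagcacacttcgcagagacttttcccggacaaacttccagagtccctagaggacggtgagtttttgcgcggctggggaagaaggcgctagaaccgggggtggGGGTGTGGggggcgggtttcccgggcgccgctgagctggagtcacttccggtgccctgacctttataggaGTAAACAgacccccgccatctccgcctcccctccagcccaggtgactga

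None of the 5 Satb1 windows and not the other Tcf7 window holds a match, and the second Satb1 window shown is the richer in G and C, at 76.7% against 59.0%. The Tcf7 window holds the FOXO letters from base 2 after the start and the KLF letters, on the other strand, from base -69. Of 32851 RefSeq promoter windows outside chromosome 18, 3.65% hold the FOXO letters, 3.56% the KLF letters, 3.73% those of TCF-1 and LEF-1, 7.84% those of BACH2 and 0.0396% the PPAR repeat. BACH2 letters occur in 2 windows of Lef1 and 2 of Foxp1, while none of the 17 windows holds the TCF-1 and LEF-1 letters or the PPAR repeat. A match describes letters and is no evidence of binding.

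The forkhead genes Foxo1 and Foxp1 differed in opposite directions by small amounts that did not pass over all genes. Foxo1 (chromosome 3, 52268337 to 52350109) measured 35.1, 35.1 and 35.8 RPKM in vehicle 3, 4 and 7 and 34.1, 32.6 and 32.9 RPKM in pemafibrate 3, 7 and 8. All pemafibrate libraries were below all vehicle libraries, within a narrow range. Its log2 difference was -0.09 ± 0.04, with a 95% interval from -0.17 to -0.0027 and a limma adjusted p of 0.506, and the voom adjusted p was 0.488. Foxp1 (chromosome 6, 98925342 to 99522746) measured 15.9, 17.0 and 15.5 RPKM in vehicle and 16.9, 17.3 and 19.0 RPKM in pemafibrate. Vehicle 4 and pemafibrate 3 lay side by side, so the groups overlapped, and pemafibrate 8 was the highest. The log2 difference of Foxp1 was 0.13 ± 0.06, with an interval from -0.0035 to 0.27 (limma adjusted p = 0.530). Foxo1 RNA was 2.07 to 2.30 times that of Foxp1 per length in vehicle libraries and 1.73 to 2.02 times in pemafibrate libraries.

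The HMG-box genes Tcf7 and Lef1 did not differ detectably. Tcf7 (chromosome 11, 52246527 to 52283383) measured 99.8, 104 and 91.1 RPKM in vehicle 3, 4 and 7 and 97.7, 105 and 111 RPKM in pemafibrate 3, 7 and 8. The groups overlapped, with vehicle 7 lowest and pemafibrate 8 highest. Its log2 difference was 0.09 ± 0.06 (limma adjusted p = 0.760), and the 95% interval reaches from a ratio of 0.959 to one of 1.17. Lef1 (chromosome 3, 131110297 to 131224357) measured 35.9, 38.8 and 31.5 RPKM in vehicle and 32.4, 35.2 and 39.5 RPKM in pemafibrate, again with vehicle 7 lowest and pemafibrate 8 highest. Its spread within each group was larger than the difference of the means, 35.4 ± 3.69 against 35.7 ± 3.56 RPKM. The log2 difference was 0.01 ± 0.09 (limma adjusted p = 0.984), with ratios from 0.870 to 1.17 inside the interval, and its sign turned when vehicle 7 or pemafibrate 8 was left out.

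Klf2, which keeps naive T cells quiescent and able to leave lymphoid tissue, was the least abundant of the 7. Klf2 (chromosome 8, 72319062 to 72321654) measured 3.04, 3.64 and 2.61 RPKM in vehicle 3, 4 and 7 and 2.76, 4.13 and 4.15 RPKM in pemafibrate 3, 7 and 8. Pemafibrate 3 fell inside the vehicle range and the other pemafibrate libraries lay above it. These values rest on 82 to 133 reads per library, and the group SDs were 16.7% and 21.5% of the means. The log2 difference was 0.21 ± 0.16 (limma adjusted p = 0.782), and the 95% interval, from -0.17 to 0.58, is the widest of the set. Without pemafibrate 3 the log2 difference was 0.38 and without pemafibrate 8 it was 0.12, neither passing.

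Bach2, the repressor of effector genes, had the narrowest range of the 7 over all libraries. Bach2 (chromosome 4, 32238413 to 32586109) measured 49.4, 49.1 and 52.2 RPKM in vehicle 3, 4 and 7 and 51.1, 48.8 and 48.8 RPKM in pemafibrate 3, 7 and 8. Its highest library was 1.07 times its lowest. The log2 difference of -0.02 ± 0.04 did not pass (limma adjusted p = 0.935), and its interval runs from a ratio of 0.925 to 1.05. An antisense gene inside its span, Bach2os, measured 1.46 to 2.58 RPKM. The strand setting of the counting is not known here, and reads of the pair cannot be told apart where both genes overlap.

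Of the 7 genes, limma called 0 over all 11360 genes tested, where 40, or 0.352%, were called. At an unadjusted p under 0.05 there were 2, Satb1 and Foxo1, against 9.67% of all tested genes. The same pair had groups that did not overlap, against 15.0% of tested genes in either direction and 7.31% with pemafibrate lower. Voom called 1 of the 7, Satb1, against 1.25% of 11857 genes in either direction and 0.784% lower. The authors' deposited table has an adjusted p under 0.05 for 1 of them, again Satb1, and for 1.19% of its genes. That share is over 24421 genes, 7599 of them at 0 in all libraries, a wider base than that of limma or voom. With 7 genes such counts say little about the set. The median log2 difference of the 7 was 0.01, beside 0.0052 for all tested genes, and 4 lay above 0 and 3 below. Only Satb1 and Klf2 lay outside the range from -0.21 to 0.20 that holds all but the lowest and highest 5% of tested genes.

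**Figure D2:**
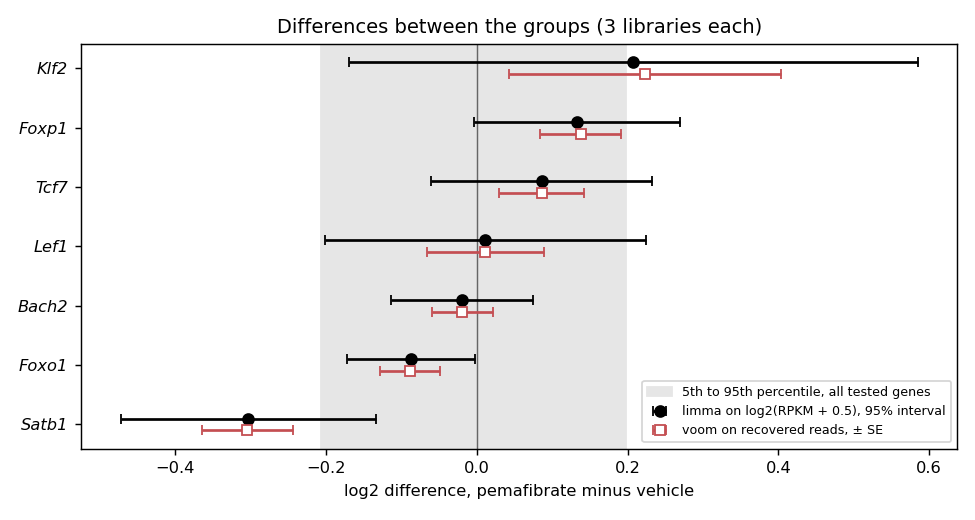
Log2 difference, pemafibrate minus vehicle, of each gene (horizontal axis) from limma on log2(RPKM + 0.5), black with 95% intervals, and from voom on recovered reads, red with SE; the grey band holds the middle 90% of all tested genes. Satb1 lies left of the band at -0.30, and the intervals of Satb1 and Foxo1 do not reach 0.

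Per length, the order of the 7 genes was the same in all libraries but for 1 pair. Satb1 (mean over the 6 libraries 172 RPKM) stood above Tcf7 (101 RPKM), followed by Bach2 (49.9 RPKM), Lef1 (35.5 RPKM), Foxo1 (34.3 RPKM), Foxp1 (16.9 RPKM) and Klf2 (3.39 RPKM). Neighbours in that order had ranges that did not overlap, except Lef1 and Foxo1. Lef1 exceeded Foxo1 in 4 of 6 libraries, and these levels do not differ beyond their spread. Satb1 was above 96.7% of tested genes and Tcf7 above 93.2%, while Klf2 was above only 21.3%.

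Within each group the same libraries were high or low for most of the set. Satb1, Tcf7, Lef1, Foxp1 and Klf2 all had vehicle 7 lowest, vehicle 3 between and vehicle 4 highest, and pemafibrate 3 lowest, pemafibrate 7 between and pemafibrate 8 highest. This order, seen in 5 of the 7 genes, is that of the libraries on the second principal component, and 9.18% of all tested genes show it. Foxo1 and Bach2 followed neither this order nor its exact reverse, and had their highest values in vehicle 7 and pemafibrate 3. The pattern was noticed in these values and was not tested, and what sets these libraries apart was not tested either. Lef1 ranged from 31.5 to 39.5 RPKM along this order, and each group spanned most of that range.

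**Figure D3:**
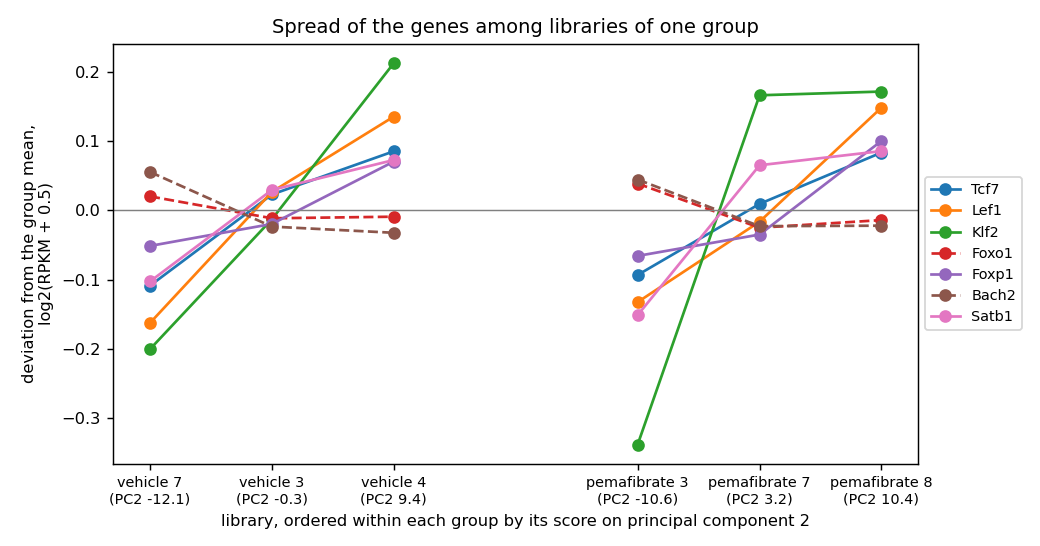
Deviation of each gene from its group mean in log2(RPKM + 0.5) (vertical axis) in the 6 libraries, ordered within each group by the second principal component score given under each name. Solid lines (Tcf7, Lef1, Klf2, Foxp1, Satb1) run upward in both groups, and dashed lines (Foxo1, Bach2) are highest in vehicle 7 and pemafibrate 3.

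Among 19 relatives from the same families, 13 were abundant enough to test, at a mean of at least 0.5 RPKM, and limma called 0 of them. Tcf7, Foxo1 and Bach2 stood above the relatives named here. Tcf7l1 reached at most 1.10 RPKM and Tcf7l2 at most 0.0441 RPKM beside 101 RPKM for Tcf7. Foxo3 (5.52 to 8.09 RPKM) and Foxo4 (12.7 to 14.0 RPKM) stood below Foxo1, and Bach1 (1.74 to 2.59 RPKM) below Bach2. Foxp4 (16.3 to 21.0 RPKM) was as abundant as Foxp1. Klf2 was not the main KLF gene: Klf6 measured 76.5 to 85.9 RPKM and Klf13 28.8 to 32.4 RPKM. Foxp3, the factor that defines regulatory T cells, averaged 3.86 ± 0.424 RPKM with vehicle and 7.39 ± 1.34 RPKM with pemafibrate, without overlap. Its limma adjusted p was 0.0573, and it was the 1 relative that voom called (higher, adjusted p = 0.00239). The authors' deposited table gives it an adjusted p of 1.3e-10, and it passed in 11 of the 22 alternatives.

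**Figure D4:**
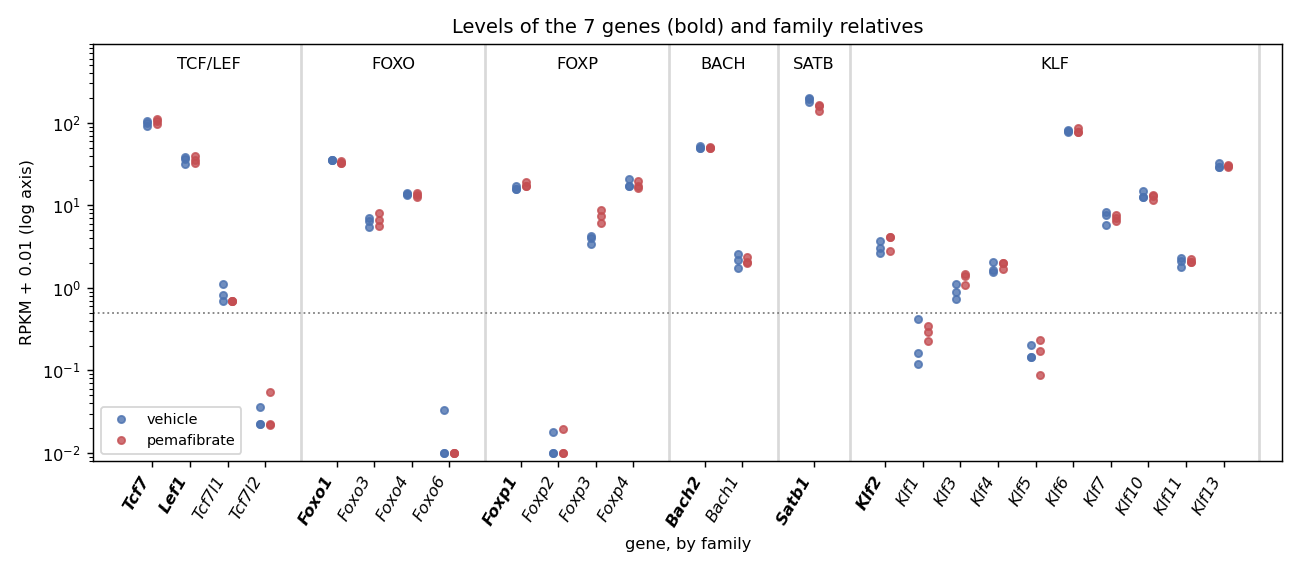
RPKM plus 0.01 on a log axis for the 7 genes (bold) and relatives of theirs, grouped by family; each point is 1 library, blue for vehicle and red for pemafibrate, and the dotted line marks 0.5 RPKM. Bach2 and Foxo1 lie above the relatives plotted beside them, whereas Klf2 lies below Klf6, Klf13, Klf10 and Klf7.

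Genes that signal to FOXO1 and known targets of FOXO1 or KLF2 gave mixed directions. Of 16 tested kinases, phosphatases and ligases upstream of FOXO1, limma called 0, with 8 above 0 and 8 below and 3 at an unadjusted p under 0.05. Sgk1, a kinase that phosphorylates FOXO proteins, measured 21.4, 20.0 and 21.2 RPKM in vehicle and 24.7, 23.3 and 24.2 RPKM in pemafibrate (limma adjusted p = 0.157, voom 0.0578). The authors' deposited table gives it an adjusted p of 0.0307, and it passed in 0 of the 22 alternatives. The PI3K subunit gene Pik3ca measured 15.7 ± 0.535 and 13.9 ± 0.487 RPKM, also without overlap (limma adjusted p = 0.285). Of 14 tested targets of FOXO1 or KLF2 limma called 0, with 7 above 0 and 7 below and a median of 0.02. At an unadjusted p under 0.05 there were 4. Of the 16 upstream genes, 2 higher and 2 lower had groups that did not overlap. Of all tested genes, 9.67% had such a p, and for 15.0% the groups did not overlap. The lists were not tested as sets.

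Among those targets, S1pr1, the receptor by which T cells leave lymph nodes and a KLF2 target, stood at 13.3 ± 0.386 RPKM with vehicle and at 15.4 ± 0.374 RPKM with pemafibrate. Its log2 difference was 0.20 ± 0.05 (limma adjusted p = 0.157). Il7r, the interleukin 7 receptor chain that FOXO1 drives, measured 43.0, 40.4 and 44.3 RPKM in vehicle and 38.6, 36.9 and 33.8 RPKM in pemafibrate. Its log2 difference was -0.22 ± 0.06 (limma adjusted p = 0.225). Sesn3, a FOXO target that restrains mTORC1, measured 92.6 ± 4.72 and 80.4 ± 0.890 RPKM, and voom called it lower (adjusted p = 0.0456) while limma did not (0.141). For each of these 3 genes the groups did not overlap. That held for 2 higher and 4 lower of the 14 targets, and for 15.0% of all tested genes. These 3 were named for the smallest p of their list, so this adds little to their p-values. In the authors' deposited table Sesn3 has an adjusted p of 0.00905, Il7r of 0.00809 and S1pr1 of 0.138. Of the 22 alternatives, Sesn3 passed in 3, Il7r in 1 and S1pr1 in 0.

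TCF-1 and LEF-1 partners showed no call. Of 11 tested, limma and voom each called 0, and 0 had an unadjusted p under 0.05. Beta-catenin, Ctnnb1, measured 101 to 106 RPKM over all libraries, and the Groucho-related gene Aes 199 to 226 RPKM. Axin2, a feedback target of beta-catenin with TCF factors, measured 3.76 ± 0.413 and 3.47 ± 0.235 RPKM. Of the 11 tested BACH2 partners, competitors and repressed genes limma called 0 and voom 0 of 12, while all 11 had a log2 difference below 0, with a median of -0.07 and a range from -0.17 to -0.03, and 2 had an unadjusted p under 0.05. The groups did not overlap for 5 of the 11, all lower. Of all tested genes, 52.6% had a difference above 0, 9.67% had an unadjusted p under 0.05, and for 15.0% the groups did not overlap. With pemafibrate lower, the share without overlap was 7.31%. The list was not tested as a set. Gzmb, the granzyme B gene that BACH2 restrains, measured 67.9 ± 3.12 and 60.2 ± 1.90 RPKM, and Fosl2, an AP-1 gene, 56.3 ± 2.22 and 51.0 ± 0.705 RPKM, both without overlap (limma adjusted p of 0.232 and 0.265). Prdm1, a BACH2 target that promotes effector fate, was at 0.0889 to 0.159 RPKM, below the level tested with limma.

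Quiescence genes, naive surface genes and effector genes each had at most 1 call. Limma and voom called 0 of 13 tested quiescence genes, 4 above 0 and 9 below, and 1 (Klf3) had an unadjusted p under 0.05. Klf3 was higher, at 0.903 ± 0.187 RPKM with vehicle and 1.30 ± 0.215 RPKM with pemafibrate, with overlap between the groups. Btg1 and Btg2, antiproliferative genes of resting T cells, measured 73.1 ± 2.44 against 69.5 ± 1.46 RPKM and 24.8 ± 0.264 against 23.6 ± 0.242 RPKM. Of 10 tested naive and memory surface genes limma and voom called 0, with 6 above 0 and 4 below. At an unadjusted p under 0.05 there were 4, of which 2 were higher (S1pr1 and Dapl1) and 2 lower (Il7r and Treml2). Of all tested genes, 9.67% had such a p. Ccr7, the lymph node homing receptor, measured 179, 195 and 161 RPKM in vehicle and 168, 216 and 220 RPKM in pemafibrate (limma adjusted p = 0.733). Dapl1, a marker of naive T cells, was low, at 0.767 ± 0.297 and 1.89 ± 0.777 RPKM (limma adjusted p = 0.259). Treml2 measured 66.8 ± 2.97 RPKM with vehicle and 61.3 ± 1.98 RPKM with pemafibrate (limma adjusted p = 0.423). Of 11 tested effector and activation genes, 6 lay above 0 and 5 below. At an unadjusted p under 0.05, 1 was higher (S100a6) and 2 were lower (Id2 and Gzmb). S100a6 measured 7.94 ± 0.764 RPKM with vehicle and 9.81 ± 0.845 RPKM with pemafibrate (limma adjusted p = 0.301). Limma called 1 of the 11, against 0.352% of all tested genes. That gene, Id2, an inhibitor of E proteins, fell. It measured 128, 126 and 122 RPKM in vehicle 3, 4 and 7 and 102, 102 and 98.9 RPKM in pemafibrate 3, 7 and 8, so the groups lay well apart. The log2 difference of Id2 was -0.32 ± 0.04 (limma adjusted p = 0.0216), and it passed in 16 of the 22 alternatives, with adjusted p from 0.00137 to 0.271. The activation genes Cd44 and Il2ra measured 36.7 to 41.8 RPKM and 615 to 707 RPKM, without a call.

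**Figure D5:**
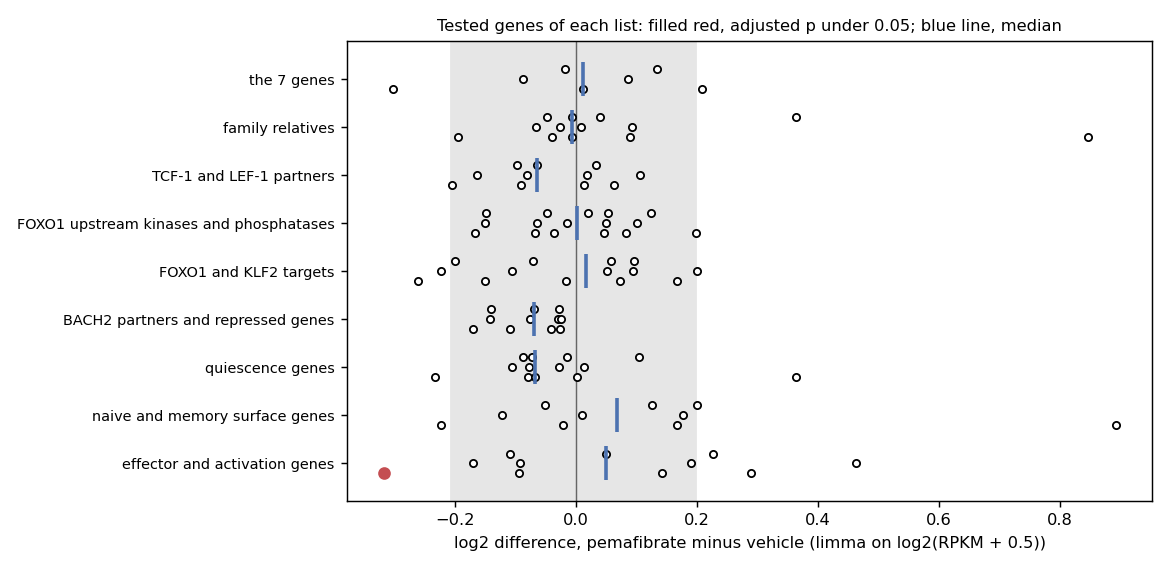
Log2 differences, pemafibrate minus vehicle (horizontal axis), of the 7 genes and of the tested genes of 8 related lists; open circles did not pass, the filled red one (Id2) passed at a limma adjusted p under 0.05, blue lines are medians, and the grey band holds the middle 90% of all tested genes. All 11 tested genes of the BACH2 list lie left of 0, and inside the band, where 52.6% of all tested genes lie right of 0.

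The cells had the markers of their label. The 8 T cell markers summed to 1371 to 1411 RPKM in vehicle and 1343 to 1401 RPKM in pemafibrate, with Cd3e at 120 to 125 RPKM, and limma called 0 of them. The 6 Th17 markers summed to 1803 to 2003 RPKM and 1350 to 1643 RPKM, with Il23r lower and Ccr6 higher by limma. Voom also called the interleukin 17 genes lower, Il17a (198 ± 22.3 to 124 ± 17.8 RPKM, voom adjusted p = 0.00186, limma 0.0717) and Il17f (1621 ± 83.8 to 1286 ± 130.2 RPKM, voom adjusted p = 0.0148, limma 0.181). Markers of other spleen cells that also use members of the set were low. The 7 B cell markers summed to 6.23 to 6.78 RPKM in vehicle and 6.31 to 7.28 RPKM in pemafibrate, the 7 myeloid markers to 11.2 to 13.3 and 9.35 to 15.0 RPKM, and the 6 CD8 and NK markers to 5.72 to 7.34 and 6.58 to 7.97 RPKM. The 8 endothelial and erythroid markers summed to 12.7 to 13.5 and 12.0 to 12.8 RPKM, nearly all of it Pecam1, with Hba-a1 and Hbb-bs at 0 in all libraries. None of the tested genes of these 4 lists was called by limma or voom. Only 1, Fcer1g, had an unadjusted p under 0.05, against 9.67% of all tested genes. Klf2, at 2.61 to 4.15 RPKM, is near the level of the myeloid markers Cd68 (2.76 to 4.51 RPKM) and Lyz2 (4.32 to 8.95 RPKM), and the part of other cells in its level was not tested.

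Over the 6 libraries, the genes whose log2(RPKM + 0.5) ran most like each factor were sought among 7910 genes averaging 5 RPKM or more (7911 for Klf2). The points are few and share the second component described above, so the correlations are given as description only. Satb1 was most like Pskh1 (Pearson r = 0.996) and Mxd1 (0.988), and Mxd1 measured 38.2 to 42.7 RPKM in vehicle and 31.1 to 34.9 RPKM in pemafibrate. Klf2 was most like Ccr7 (r = 0.995) and Kif2c (0.994). Tcf7 ran with Ahsa1 (r = 0.994) and Ada (0.993), and Lef1 with Nfkbia (0.995) and Tapbpl (0.994). Foxo1 ran with Eid1 (r = 0.997) and Gja1 (0.990), Foxp1 with Cxcr3 (0.981) and Ergic1 (0.980), and Bach2 with Clcn3 (0.994) and Arl4c (0.992). None of these 14 genes passed limma over all genes.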

How the data were processed

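RNA from 6 samples was sequenced, and one table of all genes was used. The submitters' processing notes name HISAT2 2.1.0 and featureCounts 1.4.6 beside bcl2fastq, Trimmomatic 0.35 and edgeR, and the builds GRCm38 and mm10; the annotation and the strand setting are not given in the sources used here, and the library kit was stranded, per the labels' protocols. The authors deposited RPKM per gene and sample, and, for the comparison, a log2 fold change with a raw and an adjusted p-value, per the file headers; the other deposited column is their rank, which was not used. Treatment labels gave the groups.

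Whole reads were recovered from the RPKM steps: for all 16822 genes above 0, 100% of nonzero values were whole within a relative tolerance of 1e-06, as were the implied gene lengths, and recovered reads summed to 99.7% of each implied library size. Precision from read numbers is for counting error alone. Genes averaging 0.5 RPKM or more were tested on log2(RPKM + 0.5), a scale that understates changes of low genes, with limma 3.58.1 in R 4.3.3 (trend, Benjamini-Hochberg, threshold 0.05). Voom on recovered reads (mean of at least 10) was an alternative, beside pseudocounts of 0.1 and 1, array weights, robust moderation, quantile normalization, scaling by median ratios, no filter or one at 2 RPKM, the title number as a block, and leaving out each library; voom without each library was added after seeing the data. Libraries within a group varied beyond sampling noise (chi-square per degree of freedom 2.69 to 7.86). The procedure was tested on simulated data in which libraries varied independently. Those data lack the variation shared along the second component, so they do not measure its performance on these libraries. The 7 genes and the 14 lists were chosen with earlier results of these data known. Named genes are the 7, up to 4 per list with the smallest p, the 2 most alike genes per factor, and list members where a level or count needed them. Positions and promoters come from RefSeq, GRCm38.p6, where all 7 symbols matched. Some list members are not reported here. Figures used matplotlib 3.10.9 in Python 3.11.15.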

Additional observations from a re-analysis of the deposited data

How the results depend on the processing

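All 7 genes missed the threshold under every limma alternative. The count of all genes called was 40 with the settings of the report, 7 with no filter, 140 with array weights and 148 with voom. It was 0 with the replicate block, where only the libraries numbered 3 and 7 bear on the difference. With a library left out it was 0 to 25 with limma. With voom it was then 57, 100 and 131 for vehicle 3, 4 and 7 left out in turn, and 155, 60 and 108 for pemafibrate 3, 7 and 8. Of the 7 genes, voom called 1, and 0 to 1 with a library left out. Satb1 kept its sign: its log2 difference was -0.30 with voom, -0.36 to -0.23 for voom with a library left out (-0.35 without pemafibrate 8), and its limma adjusted p was 0.188 to 0.466 with a library left out and 0.0768 with array weights. Lef1 reversed to -0.0069 with array weights, to -0.0696 (limma) and -0.0703 (voom) without vehicle 7, and to -0.0627 and -0.0658 without pemafibrate 8, and reached 0.0792 without vehicle 4. Bach2 reversed to 0.0087 (limma) and 0.0091 (voom) without vehicle 7, and its lowest limma value was -0.0414 without pemafibrate 3. Tcf7, Klf2, Foxo1 and Foxp1 kept their signs in all 22 alternatives (0.03 to 0.13, 0.11 to 0.43, -0.11 to -0.08 and 0.08 to 0.17). The causes were not tested.

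The title numbers 3 and 7 occur in both groups, but same-numbered libraries did not deviate together (correlations of deviations across 11360 genes of 0.03 and -0.0083, against 0.20 for vehicle 4 with pemafibrate 8 and 0.18 for vehicle 7 with pemafibrate 3). With the replicate block the log2 difference of Satb1 was -0.31 (limma adjusted p = 0.655). Numbers 4 and 8 do not occur in both groups, so vehicle 4 and pemafibrate 8 then add nothing to the difference. That fit rests on the libraries numbered 3 and 7, and a call was hard to reach in it. Scaling alternatives moved the median of all genes by at most -0.0039. Depth limits Klf2 most.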

Other observations

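Satb1 and Tcf7 shared the order of libraries within each group, and their ratio varied little there. Satb1 RNA per length was 1.94, 1.92 and 1.94 times that of Tcf7 in vehicle 3, 4 and 7, and 1.42, 1.53 and 1.48 times in pemafibrate 3, 7 and 8. The vehicle mean was 1.93 ± 0.0149 and the pemafibrate mean 1.48 ± 0.0582 (SD, n = 3 each), without overlap. The pair was chosen after its values were seen, so no test is given, and a ratio shows unequal change rather than which gene moved. Ratios of Satb1 to Lef1, Klf2, Foxp1 and Bach2 also had groups that did not overlap. The ratio to Foxo1 did overlap (4.93 to 5.69 in vehicle, 4.06 to 4.96 in pemafibrate). All these ratios share Satb1, whose own groups did not overlap, so they largely restate its values.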
